A study of Homo sapiens with 15 samples.

Results

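The gene expression of HT1080 cells carrying an inactivated first catalytic domain of lysine deacetylase 6 (KDAC6) was compared with that of HT1080 cells carrying inactivated KDAC8, each after 2 days on the inhibitor reported as selective for its own enzyme. The comparison used 6 of the 15 RNA-seq libraries of the series, chosen by their labels, and the 18708 autosomal and mitochondrial genes tested out of 19535 tested in all. The 3 libraries of 6CD1m came from cells with the H216A change in HDAC6 on 1 µM Tubastatin A (TubA), and the 3 libraries of 8CDm came from cells with the H143A change in HDAC8 on 5 µM PCI-34051 (PCI). The other 9 libraries were 3 of 6CD2m (H611A in HDAC6, second catalytic domain, 1 µM TubA, 2 days), 3 of WT cells on 1 µM TubA for 14 days and 3 of WT cells on 5 µM PCI for 14 days. HT1080 is a human fibrosarcoma cell line, and every library came from inhibitor-treated cells. The missense changes lie in the endogenous genes, so the proteins are still made. Line and inhibitor changed together between 6CD1m and 8CDm and cannot be told apart, and neither can line and duration against WT. The number of clones behind each line is not given in the sources used here.

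KDACs, also called histone deacetylases or HDACs, remove acetyl groups from lysines of histones and of many other proteins. KDAC6 is mostly cytoplasmic, has a pair of catalytic domains and is best known for deacetylating α-tubulin in microtubules. KDAC8 is a single-domain enzyme best known for deacetylating SMC3, a subunit of the cohesin ring that holds sister chromatids together and shapes chromosome loops.

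Library totals were 10932437 to 14068212 counts in 6CD1m and 18044059 to 19423610 in 8CDm, so 6CD1m was the shallower group. Small structural RNA genes took 6.33 to 8.86% of counts in 6CD1m and 5.03 to 5.81% in 8CDm. With scaling factors set without these and the mitochondrial genes, 2069 genes were called between the lines, 2068 of them shared in the same direction with the main fit. Any other part of these RNAs in the results below was not tested. Within groups, 6CD1m replicate 1 and the first replicates of both WT groups were the least like their partners. The chi-square of counts per gene between replicates was 23.1 and 39.9 for pairs with 6CD1m replicate 1 against 6.79 for replicates 2 and 3, and 43.1 and 28.2 for pairs with WT PCI replicate 1 against 4.87. In 8CDm it was 2.57 to 7.21. Without 6CD1m replicate 1 the count of genes called between the lines, given below as 2069, was 1678. Both mutated genes lie on the X chromosome and are outside the genes compared. A missense change leaves transcripts in place, so their reads do not check the labels. The labelled cell type was checked by marker genes. VIM, an intermediate filament gene of mesenchymal cells, stood at 3514 to 4368 CPM (counts scaled to a common library total) in 6CD1m and 3141 to 3522 CPM in 8CDm. The 18 mesenchymal markers summed to 5587 to 7039 CPM in 6CD1m and to 7290 to 7825 CPM in 8CDm. The 9 epithelial markers summed to 7.32 to 16.4 CPM and to 9.97 to 10.8 CPM, respectively. The blood cell genes PTPRC, CD3E, HBB and HBA1 had no counts in either group, and the 8 markers of that list summed to 19.95 to 54.3 CPM and to 68.6 to 80.7 CPM. Endothelial markers, 5 genes, summed to 1.25 to 1.68 CPM in 6CD1m and 4.61 to 5.48 CPM in 8CDm. In bulk RNA, fewer cells of a type and less RNA per cell cannot be told apart.

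Many genes separated the 2 lines. At a false discovery rate (FDR) of 0.001 in edgeR's quasi-likelihood test, 2069 of 18708 genes (11.1%) differed, with 1117 (5.97%) higher in 6CD1m and 952 (5.09%) lower. These shares, used below as background, cover coding and non-coding genes together, while the gene lists hold mostly coding genes. With only coding genes in the fit, 2392 of 13437 differed, 1315 higher and 1077 lower. The 2069 became 1214 without 6CD1m replicate 2 and 1216, 1185 and 1185 without 8CDm replicates 1, 2 and 3. The called genes had a median absolute log2 fold change of 1.06, and 369 of them differed by at least 4-fold. The most extreme genes were matrix, adhesion and olfactory receptor genes nearly silent in 8CDm, and a smaller set, including PAEP and ACOT2, nearly silent in 6CD1m. In 20 called genes the 8CDm group had no count at all, against 5 called genes with none in 6CD1m. The study describes its replicates as biological without saying whether they were separate cultures, so p-values measure the spread between these libraries.

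**Figure D1:**
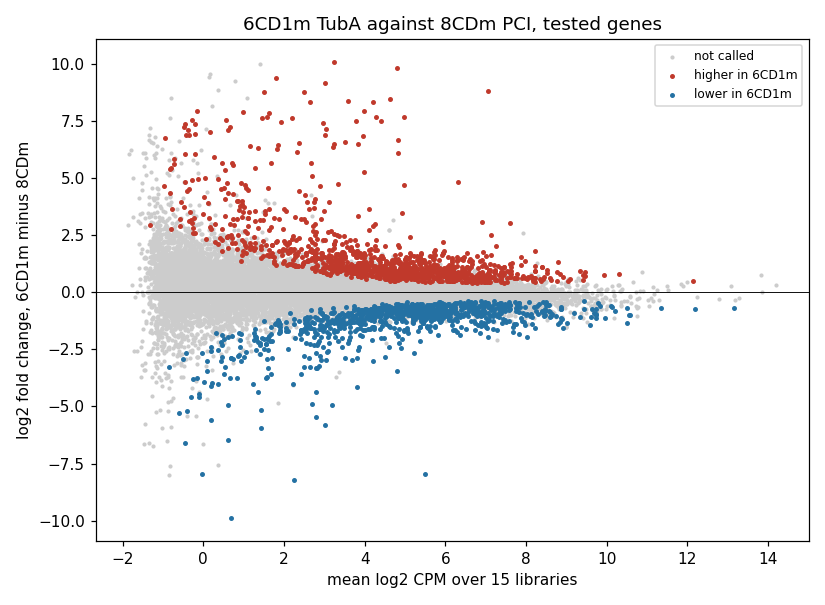
Log2 fold change of 6CD1m minus 8CDm (y axis) against mean log2 CPM over the 15 libraries (x axis) for the 18708 genes tested. Red points are the 1117 genes called higher in 6CD1m and blue points the 952 called lower, and the largest differences reach about 10 on the log2 scale at low to middle expression.

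Most of the called genes were set apart by the 8CDm libraries. Over all genes tested, 13.6% had the 3 8CDm libraries outside the range of the other 12 libraries, and 3.88% had the 3 6CD1m libraries outside the range of the other 12. Among the 2069 called genes these shares were 57.7% and 15.5%. In 675 called genes neither group stood outside the other libraries. Library overlap itself separates little here, since the 6 libraries did not overlap between the groups for 50.7% of all genes tested.

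Genes higher in 6CD1m by the largest amounts included matrix enzymes and glycoproteins. PXDN, a peroxidase that crosslinks collagen IV in basement membranes, was at 7.49, 8.63 and 8.23 CPM in 6CD1m and had no count in 8CDm. This is at least 149-fold higher, taking 3 counts over the 8CDm group as the floor (log2 fold change 10.09, edgeR FDR 3.1e-09). THBS2, the matrix glycoprotein thrombospondin-2, was at 114, 144 and 143.3 CPM in 6CD1m and at 0.228, 0.271 and 0.376 CPM in 8CDm. Every 6CD1m library was far above every 8CDm library, a log2 difference of 8.80 ± 0.20 (SE, n = 3 and 3, edgeR FDR 1.8e-13). THBS2 was also high in 6CD2m (178 CPM) and in WT on either inhibitor (154 and 197 CPM), so 8CDm was the group that differed.

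Further genes at or near 0 in 8CDm sat on several chromosomes. CHST15, a sulfotransferase that makes chondroitin sulfate E, had 14.3, 14.2 and 15.5 CPM in 6CD1m and a single count in all 8CDm libraries, a ratio of 802 (95% counting interval 143.4 to 3.17e+04). ADGRL4, an adhesion G protein-coupled receptor known from endothelium, varied among 6CD1m libraries (11.53, 23.7 and 34.7 CPM) and again had 1 count in 8CDm. IRX1, a homeobox transcription factor, was at 3.96, 2.39 and 3.42 CPM in 6CD1m and without a count in 8CDm, at least 58.5-fold higher. SCIN, which severs and caps actin filaments, had 4.04, 6.25 and 7.18 CPM against 1 count in all of 8CDm. ANO5, a membrane protein of the anoctamin family linked to muscle disease, had 1.26 to 1.88 CPM in 6CD1m and no count in 8CDm, at least 27.9-fold higher. PXDN, ADGRL4, CHST15, THBS2, IRX1 and ANO5 were all detected in 6CD2m and in both WT groups. SCIN was lower in 6CD2m (0.838 CPM) than in WT (4.21 CPM on TubA and 4.27 CPM on PCI).

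**Figure D2:**
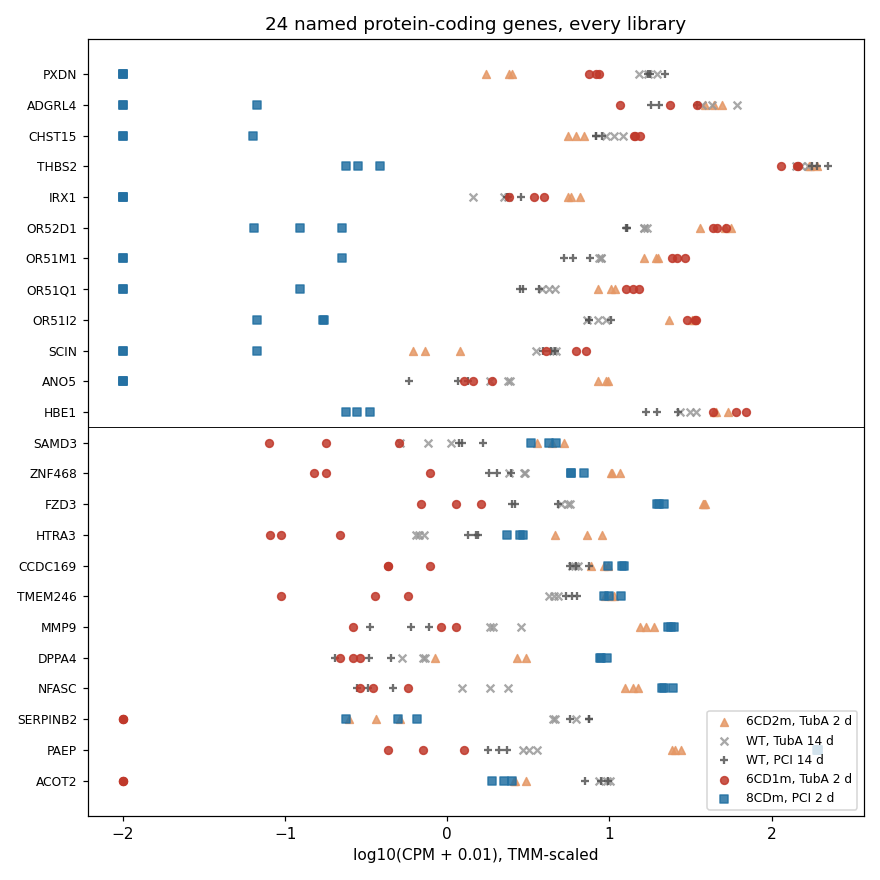
Expression of the 24 named protein-coding genes as log10(CPM + 0.01) (x axis), with a point for each of the 15 libraries and genes ordered by log2 fold change from the lowest (bottom) to the highest (top). In the upper 12 genes the 8CDm libraries (blue squares) lie far to the left of all others, and in the lower 12 genes the 6CD1m libraries (red circles) lie to the left of 8CDm.

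The genes lower in 6CD1m formed a different picture, since several were also low in WT. PAEP, the secreted lipocalin glycodelin, was at 192, 191 and 193 CPM in 8CDm and at 1.26, 0.421 and 0.697 CPM in 6CD1m. The log2 difference was -7.95 ± 0.20 (edgeR FDR 5.9e-13). PAEP stood at 25.7 CPM in 6CD2m, 3.23 CPM in WT on TubA and 2.05 CPM in WT on PCI, so 8CDm was highest and 6CD1m lowest. ACOT2, a mitochondrial acyl-CoA thioesterase, had no count in 6CD1m and 2.51, 2.22 and 1.88 CPM in 8CDm, at least 29.6-fold lower. In the remaining groups ACOT2 was at 2.73 CPM (6CD2m), 9.44 CPM (WT on TubA) and 8.55 CPM (WT on PCI). ACOT2 has a near-identical neighbouring copy, so its value is uncertain where reads could be split.

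NFASC and MMP9 were high in both 8CDm and 6CD2m. NFASC, neurofascin, an adhesion protein of axons, was at 21.2, 24.5 and 21.7 CPM in 8CDm and 0.337, 0.562 and 0.279 CPM in 6CD1m (log2 -5.80 ± 0.27, edgeR FDR 8.6e-10). It reached 13.8 CPM in 6CD2m, 1.80 CPM in WT on TubA and 0.345 CPM in WT on PCI. MMP9, a gelatinase that degrades collagen IV, was at 24.03, 23.02 and 24.8 CPM in 8CDm and 0.253, 1.12 and 0.906 CPM in 6CD1m (log2 -4.92 ± 0.30, edgeR FDR 1.6e-08). FZD3, a WNT receptor, was at 19.5 to 21.8 CPM in 8CDm, 38.2 CPM in 6CD2m and 0.674 to 1.61 CPM in 6CD1m. DPPA4, a chromatin protein of pluripotent cells, was at 8.70 to 9.59 CPM in 8CDm and 0.209 to 0.281 CPM in 6CD1m.

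The other named coding genes had log2 differences of -5.95 to -4.0006. HTRA3, a secreted serine protease, had 5 counts in all 6CD1m libraries against 147 in 8CDm. TMEM246 had 0.0842 to 0.562 CPM in 6CD1m and 9.21 to 11.7 CPM in 8CDm. CCDC169 had 0.418 to 0.772 CPM and 9.72 to 12.4 CPM, respectively. ZNF468, a zinc finger gene from a family of similar copies, had 0.140 to 0.767 CPM and 5.75 to 6.93 CPM. SAMD3 had 0.0697 to 0.491 CPM and 3.28 to 4.67 CPM. SERPINB2, plasminogen activator inhibitor 2, was low in both lines, with no count in 6CD1m and 25 counts over 8CDm, at least 6.17-fold lower. It reached the mean log2 CPM of at least 1 that naming required only through the libraries of the other groups. SERPINB2 missed the FDR of 0.001 without 6CD1m replicate 1, 2 or 3 and without 8CDm replicate 2 or 3, at FDRs of 0.00182, 0.00279, 0.0020, 0.00206 and 0.0022.

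Non-coding genes differed by similar amounts. LINC00355 was at 4.46, 4.91 and 5.44 CPM in 6CD1m and had no count in 8CDm, at least 90.5-fold higher. RP1-101G11.3 was at 42.3 to 45.4 CPM in 6CD1m, 0.271 to 0.537 CPM in 8CDm, 90.7 CPM in 6CD2m and only 2.92 and 4.20 CPM in WT on TubA and PCI, so it was high in both KDAC6 lines. RP11-307P5.1 had 2.44 to 3.65 CPM in 6CD1m and 3 counts in 8CDm, a ratio of 57.2 (95% counting interval 19.1 to 281). PAX8-AS1, transcribed opposite the thyroid and kidney transcription factor gene PAX8, was at 28.3, 27.6 and 27.3 CPM in 8CDm and 0.337, 0.702 and 0.767 CPM in 6CD1m (log2 -5.48 ± 0.29, edgeR FDR 3e-09). RP11-669N7.2, an antisense gene, and RP11-93G5.1 each had a log2 difference of -3.33. Strand handling in the counting is not given in the sources used here, so antisense genes and their partners cannot be told apart.

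Among windows of 500 kb, the 1 with the largest share of genes called in a single direction held a globin and olfactory receptor block. Among windows of 1 Mb, 1 on chromosome 7 (83.3%) ranked above the window with this block (78.3%). The block spans chr11:5253190-5505652 (GRCh38, 252 kb) and was chosen after its values were seen, as was its extent. All 18 of its tested genes were higher in 6CD1m, against 5.97% of all genes tested. They are 11 genes annotated as coding and 7 pseudogenes, and 14 of the 18 belong to the OR51 and OR52 olfactory receptor families. The log2 differences ran from 4.54 to 8.75 with a median of 7.63. Several long gene models in it, among them the embryonic ε-globin gene HBE1, span much of the block and overlap the receptors, so reads could be shared between them.

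The level of the whole block showed the same contrast. Its 18 genes summed to 405, 475 and 498 CPM in 6CD1m and to 3.47, 2.00 and 2.63 CPM in 8CDm. The sums were 425 ± 48.0 CPM in 6CD2m, 169 ± 1.61 CPM in WT on TubA and 136 ± 7.98 CPM in WT on PCI (SD, n = 3 each). The 8CDm libraries were therefore near the detection floor in a block that all other groups transcribed, and the KDAC6 lines held the highest sums. HBE1 had 43.4, 60.6 and 69.5 CPM in 6CD1m and 0.228, 0.325 and 0.268 CPM in 8CDm (log2 7.68 ± 0.29, edgeR FDR 7.2e-11). OR52D1 had 43.4, 45.7 and 52.4 CPM in 6CD1m and 7 counts in all of 8CDm (log2 8.44 ± 0.27). OR51M1, OR51Q1 and OR51I2 were higher by 8.36, 8.30 and 7.92 on the log2 scale. The receptors of this block are odorant receptors of sensory neurons, and their close relatives make assignment of reads among them uncertain. Genes just outside behaved differently, since TRIM6 had a log2 difference of 0.27 (edgeR FDR 0.22) and TRIM22, an interferon-induced antiviral gene, was lower in 6CD1m by 0.92.

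**Figure D3:**
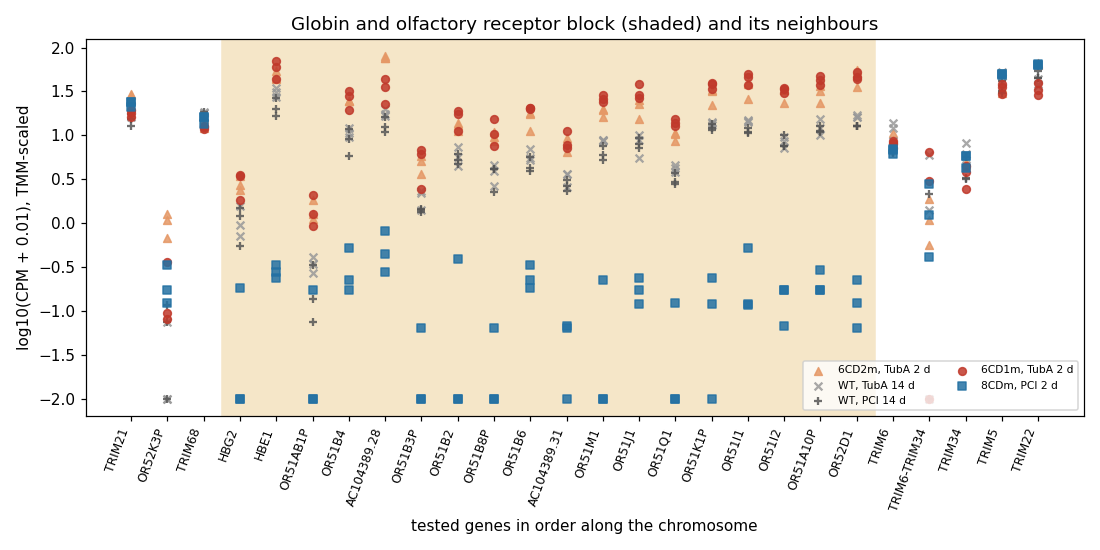
Expression as log10(CPM + 0.01) (y axis) of the 18 genes of the globin and olfactory receptor block (shaded) and of tested neighbours on either side, in chromosomal order (x axis), with a point for each of the 15 libraries. The 8CDm libraries (blue squares) fall to the bottom within the shaded block and rejoin the others outside it.

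Wider regions also differed by line. Of 1395 windows of 1 Mb with at least 5 tested genes, 14 had at least 50% of their genes called in a single direction, and 13 of 1515 windows of 500 kb did. In distal 7q (chromosome 7, 150000001 to 160000000), 25 of 37 coding genes tested were higher in 6CD1m and 1 was lower, with a median log2 difference of 1.301. Of all genes tested, 5.97% were higher and 5.09% lower. PTPRN2, a receptor-type phosphatase of secretory granules, had 1.05 to 1.77 CPM in 6CD1m and no count in 8CDm, and GIMAP6, a GTPase of lymphocytes, had 52 counts against 1. Both were chosen after their values were seen, as were the regions. Along the long arm of chromosome 6 (70000001 to 170000000), 88 of 305 coding genes were higher and 7 lower, against the same 5.97% and 5.09%. The median log2 difference was 0.65, and 276 of the 305 were positive. THBS2 and RP11-307P5.1 lie there, and so does SAMD3, which went the other way.

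The 8CDm libraries set the level of both regions. Relative to the mean of the 5 groups, the median coding gene of distal 6q stood at -0.60 to -0.56 on the log2 scale across 8CDm libraries and at -0.22 to 0.16 across 6CD1m libraries. In distal 7q these ranges were -0.97 to -0.89 in 8CDm and 0.10 to 0.21 in 6CD1m. Log2 differences of coding genes followed GC content (Spearman rho 0.37 across 13415 genes, which are not independent replicates), and with offsets for GC content in the fit the medians were 0.86 in distal 6q and 1.14 in distal 7q. DNA copy number was not measured in these data. On the short arm of chromosome 6 (20000001 to 30000000), 19 of 32 tested replication-dependent histone genes were higher and 1 was lower, with a median of 1.09. The shares over all genes tested were 5.97% and 5.09%. Outside these 3 regions and the globin and olfactory receptor block, 938 genes were higher and 939 lower in 6CD1m, so 179 of the 1117 higher genes lay inside them.

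**Figure D4:**
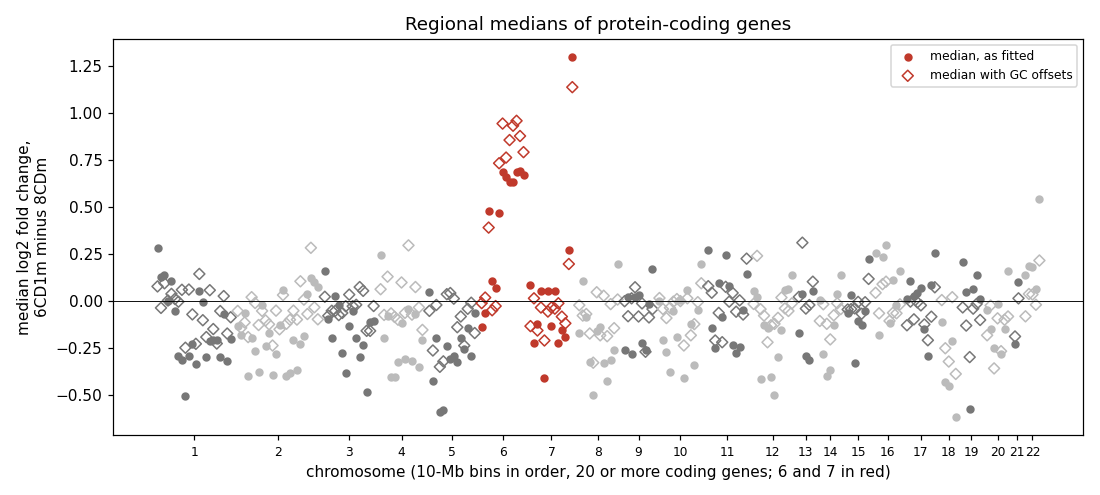
Median log2 fold change of 6CD1m minus 8CDm (y axis) for coding genes in 233 bins of 10 Mb ordered along the autosomes (x axis), as fitted (filled) and with GC offsets (open diamonds). Chromosomes 6 and 7 are in red, the last bin of 7q is highest under both fits, and of the distal 6q bins the first (0.47 as fitted) lies below a bin of chromosome 22 (0.55) and the 6p histone bin (0.48).

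Cell cycle and DNA replication genes were higher in 6CD1m. Of 67 tested genes of this list, 29 were higher and 3 lower, against 5.97% and 5.09% of all genes tested, and the list's median log2 difference was 0.60 against 0.06 over all genes. E2F2, a transcription factor that drives entry into S phase, was at 12.2, 11.2 and 9.83 CPM in 6CD1m and 1.82, 2.76 and 1.99 CPM in 8CDm (log2 2.33 ± 0.28, edgeR FDR 1.4e-05). E2F1, another activator of S-phase genes, was at 53.4, 47.0 and 41.9 CPM against 16.2, 18.5 and 18.1 CPM (log2 1.43 ± 0.11, edgeR FDR 3.1e-07). RRM2, the ribonucleotide reductase subunit that makes deoxyribonucleotides, was at 80.5 to 113 CPM against 31.9 to 38.3 CPM, and E2F8, an atypical E2F of late S phase, at 7.58 to 9.27 CPM against 2.11 to 3.36 CPM. None of the 4 overlapped between the groups.

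The 3 genes of this list lower in 6CD1m were CCND2, CDK6 and E2F7. CCND2, cyclin D2, was at 72.8 to 90.1 CPM in 6CD1m and 242 to 258 CPM in 8CDm. CDK6, the kinase that cyclin D2 activates, was at 126 to 190 CPM against 414 to 453 CPM. E2F7, a repressor, was lower by 0.52 on the log2 scale and was called in only 7 of 17 alternative fits. In WT on TubA against PCI the list's median log2 difference was 0.53. There 0 of the 67 genes were called with edgeR in the fit over all 15 libraries, 54 had an unadjusted p under 0.05 and 15 were called with DESeq2. With only the WT libraries and the replicate number as a block, chosen after seeing the data, 34 of the 67 were higher on TubA and 0 lower. In that fit the list was higher on TubA in WT as well, but the labels do not say that same-numbered libraries were paired. Relative to the mean of the 5 groups, the list's median was 0.32 in 6CD1m, -0.29 in 8CDm and -0.28 in 6CD2m on the log2 scale. It was 0.40 in WT on TubA and -0.08 in WT on PCI. The 6CD2m group, also on TubA for 2 days, was thus near 8CDm and not near 6CD1m. The departure of the line difference from the WT difference was called for 4 genes upward and 2 downward, and for 2 and 1 with the replicate block over all libraries. With only the 6 libraries compared in the fit, 17 were higher and 2 lower.

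E2F factors bind a short GC-rich element, and promoters of 4 of the genes higher in 6CD1m are shown because they share a change in level. Within 250 bases before to 50 bases after the annotated start (RefSeq, GRCh38.p14), the letters TTTCCCGC, TTTCGCGC, TTTGGCGC or TTTGCCGC were searched on both strands, overlaps allowed. They occur in 11 of 25 matched promoters of list genes called higher, 7 of 28 of those not called, 0 of 2 called lower, 5.28% of 10705 matched tested coding genes and 3.32% of 27326 promoters in the table. The 120 bases from 100 before to 20 after each start are printed, with these letters in capitals. They begin 42 bases before the start in E2F2, 33 and 20 before in E2F1 and 14 before in UHRF1, and RRM2 has none in its window. The windows lie at chr1:23531214-23531333 (minus strand), chr20:33686366-33686485 (minus), chr19:4909401-4909520 (plus) and chr2:10122639-10122758 (plus).
E2F2: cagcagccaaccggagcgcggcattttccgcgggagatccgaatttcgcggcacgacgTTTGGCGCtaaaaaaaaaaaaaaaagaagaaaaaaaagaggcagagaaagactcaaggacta
E2F1: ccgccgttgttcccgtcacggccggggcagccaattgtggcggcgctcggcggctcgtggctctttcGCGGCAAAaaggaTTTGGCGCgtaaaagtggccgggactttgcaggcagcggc
UHRF1: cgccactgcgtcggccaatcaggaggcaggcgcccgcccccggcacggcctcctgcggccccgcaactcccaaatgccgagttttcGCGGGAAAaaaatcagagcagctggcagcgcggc
RRM2: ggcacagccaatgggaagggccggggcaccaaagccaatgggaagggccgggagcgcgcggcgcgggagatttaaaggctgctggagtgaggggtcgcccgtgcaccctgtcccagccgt

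Targets of the stress-activated transcription factor p53 were lower in 6CD1m. Of 36 tested, 15 were lower and 0 higher (edgeR, where 11.1% of all genes were called), and the list's median log2 difference was -0.50 against 0.06 over all genes. SPATA18, which acts in mitochondrial quality control, was at 1.18, 1.82 and 2.79 CPM in 6CD1m and 18.6, 19.3 and 19.2 CPM in 8CDm (log2 -3.28 ± 0.29, edgeR FDR 8.9e-07). RRM2B, the p53-induced ribonucleotide reductase subunit, was at 26.4, 38.0 and 45.4 CPM against 122, 126 and 124 CPM (log2 -1.76 ± 0.20). TP53INP1, a stress-induced regulator of apoptosis and autophagy, was at 14.4 to 16.9 CPM against 40.1 to 48.2 CPM, and ZMAT3, an RNA-binding splicing regulator, at 126 to 182 CPM against 399 to 433 CPM.

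The best-known members moved the same way. MDM2, the ligase that degrades p53, was at 254, 257 and 283 CPM in 6CD1m and 682, 647 and 647 CPM in 8CDm (log2 -1.31 ± 0.09), and CDKN1A, the cyclin-dependent kinase inhibitor p21, at 123, 123 and 133 CPM against 214, 224 and 220 CPM (log2 -0.80 ± 0.11). Both were named after their values were seen. MDM2 was at 836 ± 21 CPM in 6CD2m and at 248 and 296 CPM in WT on TubA and PCI. Relative to the mean of the 5 groups the list's median stood at -0.27 in 6CD1m, 0.27 in 8CDm, 0.22 in 6CD2m, -0.15 in WT on TubA and -0.10 in WT on PCI on the log2 scale. The difference from 8CDm therefore had 6CD1m on the WT side. The 15 became 9 without 6CD1m replicate 2, without 8CDm replicate 2 or without 8CDm replicate 3, and 8 when only the 6 libraries were fitted, always with 0 higher.

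**Figure D5:**
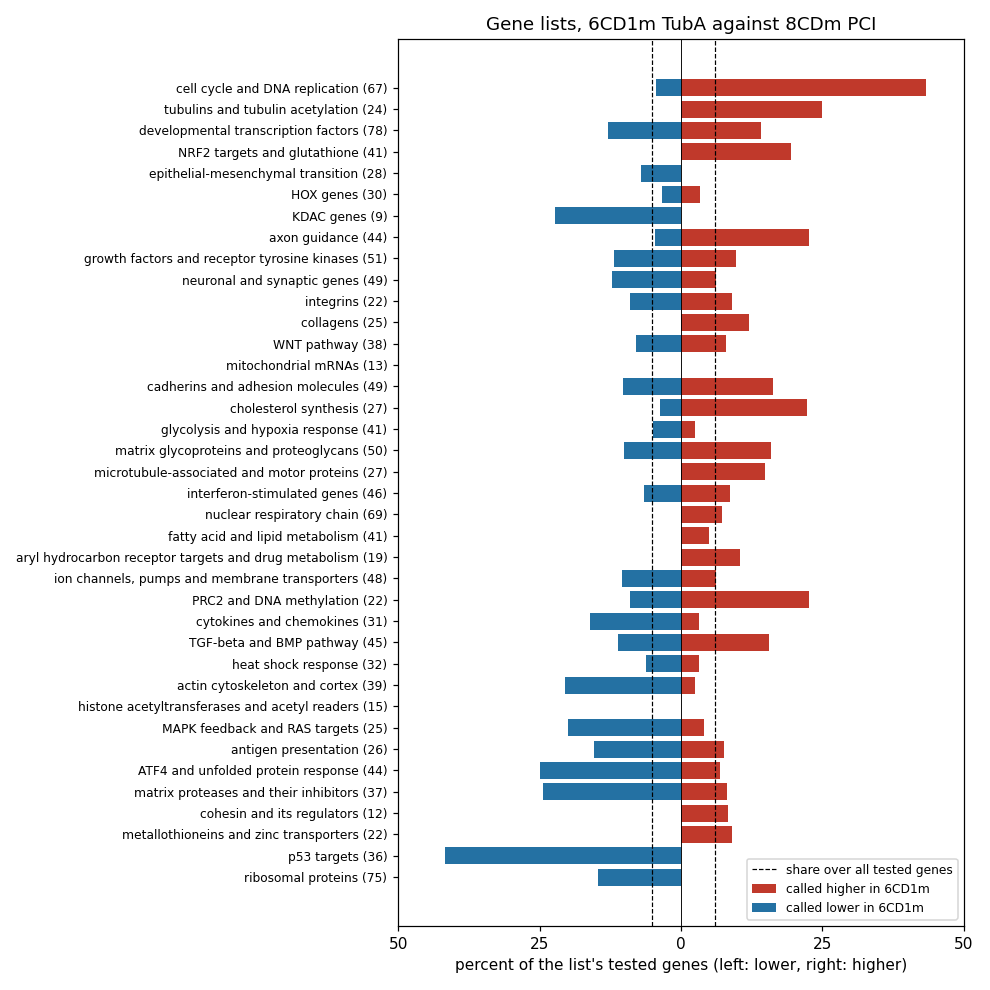
Percent of each gene list's tested genes (number in brackets) called higher (red, right) or lower (blue, left) in 6CD1m than in 8CDm (x axis), with lists ordered by median log2 difference from the lowest (bottom) to the highest (top) and dashed lines at the shares over all genes tested. Cell cycle genes reach furthest to the right and p53 targets furthest to the left.

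Some amino acid and endoplasmic reticulum stress genes were lower in 6CD1m. Of 44 tested genes responsive to ATF4 or to unfolded proteins, 11 were lower and 3 higher, against 5.09% and 5.97% of all genes, with a median of -0.21, and 30 did not pass. With only the 6 libraries fitted, 5 were lower and 1 higher. TRIB3, a pseudokinase induced by ATF4, was at 92.9 to 108 CPM in 6CD1m and 234 to 261 CPM in 8CDm (log2 -1.35 ± 0.09, edgeR FDR 4.8e-08). ALDH1L2, a mitochondrial folate enzyme, was at 47.9 to 62.4 CPM against 190 to 197 CPM. ATF3, a stress-induced transcription factor, and DNAJB9, a co-chaperone of the endoplasmic reticulum, were lower by 1.88 and 1.40 on the log2 scale. PDIA4, CTH and CRELD2 were higher by 1.16, 1.35 and 0.88. The 14 calls fell to 8, 9, 7 and 9 without 6CD1m replicate 2 and 8CDm replicates 1, 2 and 3.

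Ribosomal protein genes had negative log2 differences in 71 of 75 tested, with a median of -0.66. With edgeR 11 were lower and 0 higher, against 5.09% and 5.97% of all genes. The 11 were 42 with DESeq2, 47 with no filter, 26 with upper-quartile scaling and 29 with coding genes only, always with 0 higher. RPL11 was at 233, 295 and 333 CPM in 6CD1m and 614, 625 and 567 CPM in 8CDm (log2 -1.07 ± 0.15, edgeR FDR 7.9e-05). RPS27 and RPS18 were lower by 1.67 and 0.99. These genes have many processed copies, so their values are uncertain. The 11 became 4, 2 and 27 without 6CD1m replicates 1, 2 and 3, and 3, 2 and 2 without 8CDm replicates 1, 2 and 3, so the count was not stable.

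Glutathione and oxidative stress genes, targets of the transcription factor NRF2, were called in a single direction. Of 41 tested, 8 were higher in 6CD1m and 0 lower, against 5.97% and 5.09% of all genes, with a median of 0.30. Relative to the mean of the 5 groups, the list's median was -0.10 in 6CD1m, -0.31 in 8CDm and -0.07 in 6CD2m on the log2 scale. It was 0.28 in WT on TubA and 0.25 in WT on PCI, so 8CDm was lowest and 6CD1m lay below both WT groups. MGST1, a membrane glutathione transferase, was at 19.3, 27.2 and 30.2 CPM in 6CD1m and 0.797, 1.19 and 0.913 CPM in 8CDm (log2 4.71 ± 0.29, edgeR FDR 1.8e-08). It was at 65.1 CPM in 6CD2m and 33.1 and 32.2 CPM in WT on TubA and PCI. GSTM1, NQO1 and TALDO1 were higher by 1.24, 1.12 and 0.87. The 8 became 5, 5, 4, 4 and 3 without 6CD1m replicate 2 or 3 and 8CDm replicate 1, 2 or 3.

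The genes nearest to the 2 mutated enzymes changed in part. Among 9 other tested KDAC genes, HDAC9 and HDAC5, both class IIa enzymes, were lower in 6CD1m, against 5.09% of all genes. HDAC9 was at 34.3, 38.9 and 42.6 CPM in 6CD1m and 93.7, 89.5 and 92.0 CPM in 8CDm (log2 -1.25 ± 0.12, edgeR FDR 1.5e-06). HDAC5 was at 45.6 to 56.7 CPM against 87.0 to 92.2 CPM (log2 -0.85 ± 0.10). The class I genes HDAC1, HDAC2 and HDAC3 had log2 differences of 0.13, 0.19 and 0.19, the class IIa genes HDAC7 and HDAC4 of 0.35 and 0.42, and HDAC10 and HDAC11 of 0.57 and 0.99, none past the threshold with edgeR. For these 9 KDAC genes DESeq2 called 1 higher and 2 lower. With only the 6 libraries fitted, edgeR called 0 higher and 1 lower. Of 6 sirtuin genes and 15 acetyltransferase and acetyl reader genes, 0 were called with edgeR, although 2 in each list had an unadjusted p under 0.05. DESeq2, another count model, called 0 sirtuins and 1 of the 15. SIRT1 had the smallest adjusted p among the sirtuins (log2 -0.81, edgeR FDR 0.011), and KAT6B among the acetyltransferases (log2 -0.38).

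Among genes for tubulins and their modifying enzymes, the substrate system of KDAC6, 6 of 24 were higher in 6CD1m and 0 lower, against 5.97% and 5.09% of all genes, with a median of 0.34. TUBB3, a β-tubulin of neurons and tumours, was at 87.5, 111 and 119 CPM in 6CD1m and 51.2, 55.4 and 56.8 CPM in 8CDm (log2 0.96 ± 0.12, edgeR FDR 1.8e-05). TUBA1B, an abundant α-tubulin, was at 1278 to 1736 CPM against 819 to 966 CPM. TTLL7, which adds glutamate chains to β-tubulin, and TUBB4A were higher by 1.497 and 4.48. The departure from the WT difference was called for 0 of the 24 with edgeR (6 at an unadjusted p under 0.05) and 0 with DESeq2. The WT log2 differences of TTLL7, TUBB4A and TUBA1B were 1.41, 3.66 and 0.68. The 6 became 3 without 6CD1m replicate 2 or 8CDm replicate 3, and 1 with only the 6 libraries fitted. Of 27 microtubule-associated and motor genes 4 were higher, MAP1A, MAP2, STMN3 and KIF5C, by 2.03, 1.88, 1.16 and 0.97. Of 12 cohesin genes, the substrate system of KDAC8, only CDCA5 was called, a share near the 11.1% of all genes. The list's median log2 difference was -0.36, with 9 genes negative and 3 positive. DESeq2 called 1 higher and 2 lower. CDCA5 encodes sororin, which protects cohesion, and was at 58.3 to 66.8 CPM in 6CD1m and 23.2 to 30.7 CPM in 8CDm (log2 1.16 ± 0.12).

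Actin cytoskeleton genes gave 8 lower and 1 higher of 39, against 5.09% and 5.97% of all genes, with 21 negative, 18 positive and a median of -0.16. ACTA2, smooth muscle actin, was at 8.92, 12.8 and 14.2 CPM in 6CD1m and 36.1, 35.6 and 36.2 CPM in 8CDm (log2 -1.58 ± 0.18). EPB41L5, CNN3 and LIMA1 were lower by 1.63, 1.28 and 1.26, and EPB41L2 was higher by 0.63. Outside the regions and the globin and olfactory receptor block described above, 8 were lower and 0 higher of 36. The 8 lower became 4 without 6CD1m replicate 1 or 2 and without each 8CDm replicate. Scaling moved the split, with 5 higher and 8 lower under upper-quartile scaling, 6 and 8 with coding genes only, and 6 and 13 with DESeq2.

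Matrix and surface genes changed in both directions. The shares over all genes tested were 5.97% higher and 5.09% lower. Of 50 matrix glycoprotein and proteoglycan genes, 8 were higher and 5 lower (2 lower without 6CD1m replicate 2, 8CDm replicate 1 or 8CDm replicate 2, and 3 without 8CDm replicate 3), and after THBS2 the largest were IGFBP3, FBLN1 and FBLN2, all near the floor in 8CDm. FN1, fibronectin, was at 840, 1262 and 1514 CPM in 6CD1m and 2951, 3037 and 3081 CPM in 8CDm (log2 -1.33 ± 0.21, edgeR FDR 0.00025). THBS1 and TNC were lower by 1.09 and 1.10 and EMILIN1 by 2.91. Of 37 matrix proteases and inhibitors, 9 were lower and 3 higher. MMP1, interstitial collagenase, was at 0.491 to 0.837 CPM in 6CD1m and 6.15 to 7.89 CPM in 8CDm, far below the 42.0 and 67.3 CPM of WT on TubA and PCI. PLAT, tissue plasminogen activator, was at 117 to 163 CPM in 6CD1m and 24.5 to 26.4 CPM in 8CDm (log2 2.52 ± 0.15). Collagen genes gave 3 of 25 higher, COL22A1, COL10A1 and COL17A1, and 0 lower. Outside the regions and the globin and olfactory receptor block described above, 2 of 23 collagen genes were higher and 0 lower.

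Adhesion genes gave 8 higher and 5 lower of 49, where 5.97% and 5.09% of all genes were higher and lower. PDPN, podoplanin, was at 11.6 to 18.5 CPM in 6CD1m and 9 counts in all of 8CDm (log2 6.50 ± 0.34), and the tetraspanin CD9 had 155 counts against 2, a ratio of 105 (95% counting interval 28.5 to 872). CD9 had no count in 6CD2m. CDH5, the endothelial cadherin, was lower by 3.45 in 6CD1m, from a low level in both lines. Integrin genes gave 2 higher (ITGA11, ITGB4) and 2 lower (ITGB8, ITGB3) of 22. Axon guidance genes gave 10 higher and 2 lower of 44, with SLIT3, NTNG2, SLIT2 and SEMA6B higher by 4.16, 2.29, 2.04 and 1.85 and DCC and UNC5B lower by 3.25 and 1.51. The 10 higher axon guidance genes became 6 without 6CD1m replicate 2, 8CDm replicate 1 or 8CDm replicate 3. The adhesion count became 4 higher and 3 lower without 6CD1m replicate 2 and without each of the 8CDm replicates. The integrin count became 1 higher and 1 lower without 6CD1m replicate 1 or 2 and without each of the 8CDm replicates.

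Signalling lists were mixed, where 5.97% of all genes were higher and 5.09% lower. TGF-β and BMP genes gave 7 higher and 5 lower of 45, with INHBB, TGFBR3 and SMAD6 higher by 1.56, 1.49 and 1.46 and INHBE and INHBA, activin subunits, lower by 1.71 and 1.19. Growth factors and receptor kinases gave 5 higher and 6 lower of 51. KIT, the stem cell factor receptor, was at 2.61 to 5.02 CPM in 6CD1m and 0.057 to 0.379 CPM in 8CDm, and PDGFRB was higher by 1.69, whereas ERBB4 and PDGFB were lower by 3.76 and 2.54. Cytokine genes gave 1 higher and 5 lower of 31. CXCL8, the neutrophil chemokine interleukin-8, was at 8.00, 8.63 and 8.57 CPM in 6CD1m and 0.342, 0.379 and 0.268 CPM in 8CDm (log2 4.64 ± 0.24, edgeR FDR 2.5e-09), and IL24 at 5.98 to 10.5 CPM against 41.0 to 46.1 CPM. MAPK feedback genes gave 5 lower, led by DUSP5 (log2 -1.48), and 1 higher of 25. WNT genes gave 3 and 3 of 38, interferon-stimulated genes 4 higher and 3 lower of 46, and antigen presentation genes 2 higher and 4 lower of 26, among them CD274, the immune checkpoint ligand PD-L1, lower by 1.15. These small counts moved when libraries were left out. The 5 lower TGF-β and BMP genes became 3 without 6CD1m replicate 2 or any 8CDm replicate, and 11 with DESeq2. The 5 lower MAPK feedback genes became 3 without 6CD1m replicate 1 or 2 or any 8CDm replicate. Growth factor calls fell from 11 to 7 without 6CD1m replicate 2 or 8CDm replicate 2 or 3. WNT calls fell from 6 to 2, 2, 3 and 2 without 6CD1m replicate 2 and 8CDm replicates 1, 2 and 3. Interferon calls fell from 7 to 4 without 6CD1m replicate 2 or 3 and without each 8CDm replicate, and antigen presentation calls from 6 to 3, 2, 3 and 2 without 6CD1m replicates 1 and 2 and 8CDm replicates 1 and 2.

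Transcription factors and chromatin genes were also divided, where 5.97% of all genes were higher and 5.09% lower. Of 78 developmental transcription factors, 11 were higher and 10 lower. Outside the regions and the globin and olfactory receptor block described above, 9 were higher and 10 lower of 74. LIN28B, an RNA-binding regulator of let-7 miRNAs kept in this list, was at 4.95 to 6.40 CPM in 6CD1m and 3 counts in all of 8CDm, and SOX4 at 15.3 to 16.3 CPM against 1.65 to 1.72 CPM (log2 3.22 ± 0.16). The immediate-early nuclear receptors NR4A1, NR4A2 and NR4A3 had log2 differences of -1.84, -1.502 and -2.88. Of 22 Polycomb and DNA methylation genes, 5 were higher and 2 lower. EZH2, the methyltransferase of Polycomb repressive complex 2, was at 45.7 to 47.1 CPM against 17.8 to 20.05 CPM (log2 1.33 ± 0.09), and UHRF1, which recruits the maintenance DNA methyltransferase, at 163 to 197 CPM against 62.5 to 77.6 CPM. HOX genes gave 1 higher and 1 lower of 30, and epithelial-mesenchymal transition genes gave 2 lower (DSP, SNAI2) and 0 higher of 28. These lists were called at 6.67% and 7.14%, below the 11.1% of all genes. Developmental factor calls fell from 21 to 13 without 8CDm replicate 3, the 10 lower factors became 6 without 8CDm replicate 1, transition genes gave 2 higher and 2 lower without 6CD1m replicate 3, and the HOX calls fell to 0 without 8CDm replicate 3 and to 1 without any other library.

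Metabolic and stress lists gave calls at differing rates, where 11.1% of all genes were called, 5.97% higher and 5.09% lower. The fatty acid (4.88%), respiratory chain (7.25%), glycolysis and hypoxia (7.32%) and heat shock (9.38%) lists lay below that share. So did the metallothionein and zinc transporter list (9.09%), and the drug metabolism list (10.5%) was near it. Cholesterol synthesis genes gave 6 higher and 1 lower of 27, with INSIG1 and ACAT2 higher by 1.70 and 1.12 and ABCA1 lower by 1.76. Outside the regions and the globin and olfactory receptor block described above, 4 were higher and 1 lower of 25. Fatty acid genes gave 2 higher of 41, glycolysis and hypoxia genes 1 higher and 2 lower of 41, nuclear respiratory chain genes 5 higher of 69, and aryl hydrocarbon receptor and drug metabolism genes 2 higher of 19. NDRG1, a hypoxia and stress gene, was at 245 to 305 CPM in 6CD1m and 816 to 823 CPM in 8CDm. MT2A, a metal-binding metallothionein, was at 137 to 157 CPM against 39.1 to 46.6 CPM (log2 1.75 ± 0.14), in a list with 2 higher of 22. Heat shock genes gave 1 higher and 2 lower of 32, neuronal genes 3 higher and 6 lower of 49, and ion channel and transporter genes 3 higher and 5 lower of 48. PIEZO2, a mechanically gated channel, was higher by 6.26 with 4 counts in all of 8CDm. Cholesterol calls fell from 7 to 4 without 8CDm replicate 1, respiratory chain calls from 5 to 3 without 6CD1m replicate 2 or 3 or any 8CDm replicate, and channel calls from 8 to 2, 5, 4 and 4 without 6CD1m replicate 2 and 8CDm replicates 1, 2 and 3. The 6 lower neuronal genes became 3 without 6CD1m replicate 1 or 2 or any 8CDm replicate. Heat shock calls fell from 3 to 1 without 6CD1m replicate 1 or 3 and to 0 without 6CD1m replicate 2 or any 8CDm replicate. Without 6CD1m replicate 3, fatty acid calls rose from 2 to 4 and glycolysis and hypoxia calls from 3 to 5.

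Of the mitochondrially encoded mRNAs 0 were called with edgeR, 3 had an unadjusted p under 0.05 and 1 was called with DESeq2. The 13 mRNAs had log2 differences from -0.34 (MT-CO1) to 1.27 (MT-ND6) with a median of 0.05. The largest of them, MT-ND6, was at 863, 450 and 340 CPM in 6CD1m and 276, 217 and 193 CPM in 8CDm (edgeR FDR 0.0025), and the 6CD1m libraries differed more among themselves than the group means did from each other in MT-ND5 (4285, 2764 and 2053 CPM). The rRNAs MT-RNR1 and MT-RNR2 ranged from 3.90 to 61.2 CPM and from 3.47 to 60.8 CPM within 8CDm alone, after rRNA depletion, and were not called.

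The same pair of inhibitors was compared in WT cells at 14 days, and the number of calls there depended on the fit. With all 15 libraries in 1 model, WT on TubA against WT on PCI gave 79 calls of 18708 (0.422%), 63 higher (0.337%) and 16 lower (0.0855%) on TubA. Same-numbered WT libraries deviated together, but so did TubA replicate 3 and PCI replicate 2 (correlation 0.350), and the labels state no pairing. With the replicate number as a block over all libraries the 79 became 27, with a block within WT only 197. With only the 6 WT libraries they became 1, and with only these and the block 1940 of 16557 (11.7%), 1155 higher (6.98%) and 785 lower (4.74%). The WT count is therefore no measure of whether the inhibitors separated WT cells less than the lines, and that difference was not tested.

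The WT libraries are not those of the line comparison. In the fit of all libraries the lists shared 42 genes, 2.03% of the line list and 53.2% of the WT list, and 23 of the 42 had the same direction. Against the 1940 genes of the blocked WT fit, 292 were shared, 14.1% of the line list and 15.1% of the WT list, and 173 had the same direction. Line differences that departed from the WT difference numbered 995 (5.32%), 471 upward and 524 downward. With the replicate number as a block the 995 became 517, with a block within WT only 2114, and without WT PCI replicate 1 they became 2238. Of the 30 genes named first (24 coding and 6 non-coding), 26 departed at an FDR of 0.001, 25 with the block over all libraries and 27 with the block within WT only. These genes, and the globin and olfactory receptor block, were chosen by the line difference that enters the departure. Their departure counts were therefore largely set by that choice. In WT, 0 of the 18 globin and olfactory receptor block genes were called with edgeR or DESeq2 (3 at an unadjusted p under 0.05), with log2 differences of -0.01 to 0.89, and 17 of the 18 departed from the WT difference (16 with the block over all libraries, 17 within WT only). With only the WT libraries and the block, 1 of 17 was called.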

How the data were processed

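RNA was measured by rRNA-depleted, paired-end sequencing in 15 libraries. The authors deposited expected counts per gene, which are not whole numbers, and per the labels these were made with Trimmomatic 0.39, Bowtie2 2.4.5 and RSEM 1.3.3 on GRCh38 (submitters' processing notes, which also name DESeq2 1.38.2). Whether strand was used in counting is not given in the sources used here.

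Counts were rounded to whole numbers and tested with edgeR 4.0.16 (R 4.3.3), with TMM scaling, filterByExpr and a mean for each group over all 15 libraries. FDRs were adjusted over all 19535 genes tested, and X and Y genes were then left out. Gene positions are from GENCODE 29 (57055 of 60675 genes matched). CPM are TMM-scaled. Groups came from the labels. Fold values against a group without counts are bounds at 3 counts over the group, and against 1 to 3 counts are ratios with exact 95% binomial intervals. Both cover counting error only. SE is of the log2 fold change.

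Named genes were the 12 coding and 3 non-coding genes of largest absolute log2 fold change in each direction, with an FDR under 0.001, mean log2 CPM of at least 1 and no overlap of the groups, plus up to 4 called members per direction of each gene list, or the member of smallest adjusted p. Members and lists were chosen with earlier results of these data known. The fitting was tested on simulated data. DESeq2 1.42.0 and the other settings are compared in the closing section. Some genes that this rule names are not reported here.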

Additional observations from a re-analysis of the deposited data

Results flagged for a closer look

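Of the 30 genes named first, 26 had a line difference that departed from the WT TubA minus WT PCI difference at an FDR of 0.001 (edgeR interaction term), and the departures below are on the log2 scale. Line and duration change together in this contrast. The 30 genes were chosen by the line difference, which enters the departure, so the count was largely set by that choice. Upward departures were PXDN 10.22, LINC00355 9.57, THBS2 9.16, IRX1 9.08, ADGRL4 8.88, CHST15 8.81, OR52D1 8.07, OR51I2 7.91, OR51M1 7.87, OR51Q1 7.87, SCIN 7.85, RP1-101G11.3 7.20, HBE1 7.12, ANO5 6.58 and RP11-307P5.1 4.89. Downward departures were PAEP -8.61, ACOT2 -8.35, NFASC -8.18, PAX8-AS1 -7.42, MMP9 -6.88, DPPA4 -6.16, FZD3 -4.84, TMEM246 -4.51, ZNF468 -4.44, CCDC169 -4.28 and HTRA3 -3.25. In the fit over all libraries NFASC was the only one of these also called in WT, in the opposite direction (log2 2.37).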

How the results depend on the processing

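The count of 2069 genes differing between 6CD1m and 8CDm became 7042 at an FDR of 0.05, 1124 when a change of at least 1 on the log2 scale was also required, 3745 with DESeq2 and 837 with only the groups compared. Leaving out each library in turn gave 1185 to 1906, with 1214 without 6CD1m replicate 2 and 1216, 1185 and 1185 without 8CDm replicates 1, 2 and 3. The count of 995 departures from the WT difference became 6911 at an FDR of 0.05, 2841 with DESeq2, 2446 with no filter and 510 with only the groups compared. Leaving out each library in turn gave 527 to 2238, the highest without WT PCI replicate 1, where 36.5% of calls were upward against 47.3%. Upper-quartile scaling moved the median departure of all genes from 0.07 to 0.23 on the log2 scale. A minimum of 10 counts, coding genes only, GC offsets alone, thinning, upper quartiles and TMM factors set on other genes left both counts within 1.5 times. The genes called changed more than the counts. With GC offsets 2483 line differences were called, and these held 1694 of the 2069 in the same direction. Of 1011 departures called with GC offsets, 713 were among the 995 in the same direction.

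Same-numbered libraries of 6CD1m and 8CDm did not deviate together (r of 0.063, 0.018 and 0.0026), whereas those of WT on TubA and WT on PCI did (0.617, 0.307 and 0.248). WT TubA replicate 3 with PCI replicate 2 (0.350) and TubA replicate 2 with PCI replicate 3 (0.193) did so too. Pairing by number was therefore clear only for replicate 1, and the labels do not state it. With the replicate block the line count was 1409 and the departure count 517, and with the block within WT only, chosen after seeing the data, the departure count was 2114. The 79 WT calls became 27 with the replicate block, 197 with the block within WT only, 1 with only the WT libraries and 1940 with these and the replicate block, all chosen after seeing the data. With GC offsets and the replicate block the line and departure counts were 1803 and 643. Of 30 genes named first, 28 were called in every alternative that tested them. The exceptions were SERPINB2, called in 7 of 15, and RP11-669N7.2, which missed the threshold with only the groups compared. No called gene named in the text changed sign. Windows and list counts were varied after seeing the data. p53 targets gave 8 to 23 lower and 0 higher under the settings other than leaving out a library. The depth of 6CD1m, lower than that of 8CDm, limits what can be seen of genes near 3 counts. The causes of these changes were not tested.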
